A study of Mus musculus with 6 samples.

Results

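The 9 genes Aifm2, Dhodh, Nqo1, Gch1, Spr, Coq2, Pdss1, Pdss2 and Vkorc1l1 encode enzymes of the coenzyme Q, biopterin and vitamin K routes, which limit lipid peroxidation without the glutathione peroxidase GPX4. They were taken from the count table by symbol, and all 9 had a row among its 43346 genes. The table came from primary C57BL/6 mouse embryonic fibroblasts (MEFs) at passage 9, cultured from embryos and of limited life span in culture. Cells received 3 µM erastin or the solvent DMSO and were harvested after 24 h, with 3 libraries per group. Erastin blocks the cystine/glutamate antiporter and is used to start ferroptosis, a death driven by iron-dependent lipid peroxidation. The medium of both groups contained 2-mercaptoethanol, a reducing agent. The labels call the experiment a triplicate but do not say whether the libraries came from separate cultures or embryos, so p-values measure the spread between these libraries, which may be technical.

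Ferroptosis is held back by GPX4, which reduces lipid hydroperoxides with glutathione, and by small lipid-soluble antioxidants that stop the chain of radical reactions in membranes. Reduced coenzyme Q (ubiquinol), tetrahydrobiopterin and the hydroquinone of vitamin K are such antioxidants, and each must be synthesised, reduced or recycled by enzymes. Blocking cystine uptake can starve cells of glutathione, the substrate that GPX4 needs and these parallel routes do not. The libraries measure RNA only, so they do not show whether glutathione fell in these cells.

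Of the 9 genes, 4 passed the test of erastin against DMSO at an adjusted p under 0.05, where 43.1% of the 14000 genes tested did (edgeR quasi-likelihood test, Benjamini-Hochberg (BH) adjustment over all genes). Nqo1, Gch1 and Pdss2 were higher, 3 of 9 against 21.6% of all genes, and Spr was lower, 1 of 9 against 21.5%. The share of these genes that changed, 44.4%, was near that background. The coenzyme Q reductases Aifm2 and Dhodh, the enzymes Coq2 and Pdss1 and the vitamin K reductase Vkorc1l1 did not pass. All 9 genes passed the filter on low counts. The median of their absolute log2 fold changes was 0.28, against 0.41 over all genes tested.

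Promoter sequence was taken from RefSeq (GRCm38.p6), which held a window for 8 of the 9 genes, and is shown for the 4 genes that passed the test. The lines give the bases just upstream of each start, 5′ to 3′ on the gene's strand, with bases inside the annotated gene (GENCODE M21) left out. Capitals mark matches to a motif on either strand. Nqo1 lies at chr8:107403207-107403455 (minus strand), Gch1 at chr14:47189414-47189663 (minus), Pdss2 at chr10:43221236-43221485 (plus) and Spr at chr6:85137767-85138014 (minus).
Nqo1: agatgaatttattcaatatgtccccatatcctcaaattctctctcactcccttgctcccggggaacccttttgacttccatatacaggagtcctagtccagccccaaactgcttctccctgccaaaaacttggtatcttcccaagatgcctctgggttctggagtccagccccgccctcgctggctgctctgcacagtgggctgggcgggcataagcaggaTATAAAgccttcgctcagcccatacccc
Gch1: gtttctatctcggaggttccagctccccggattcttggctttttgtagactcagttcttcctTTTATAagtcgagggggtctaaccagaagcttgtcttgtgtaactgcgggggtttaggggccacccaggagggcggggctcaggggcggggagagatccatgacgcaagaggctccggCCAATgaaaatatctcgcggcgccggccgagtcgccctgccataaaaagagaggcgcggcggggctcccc
Pdss2: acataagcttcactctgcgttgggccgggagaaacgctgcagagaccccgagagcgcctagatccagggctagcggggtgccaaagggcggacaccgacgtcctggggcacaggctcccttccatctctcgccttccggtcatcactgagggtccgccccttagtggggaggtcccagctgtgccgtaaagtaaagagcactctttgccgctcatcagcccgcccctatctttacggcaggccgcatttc
Spr: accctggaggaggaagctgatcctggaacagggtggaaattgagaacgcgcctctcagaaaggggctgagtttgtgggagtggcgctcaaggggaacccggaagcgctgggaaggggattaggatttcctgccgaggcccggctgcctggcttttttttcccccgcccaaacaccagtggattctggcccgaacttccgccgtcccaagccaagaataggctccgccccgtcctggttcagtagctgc

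The motifs searched in the 250 bases upstream of each start were TGACNNNGC (the antioxidant response element core), TGATGNAA (the core of C/EBP-ATF elements), TGACGTCA (the cyclic AMP response element), TCACNCCAC (a sterol regulatory element core), CCAAT and TATAAA. The matches did not overlap one another. The antioxidant core occurred in 10.2% of 32851 promoter windows of this length and in 0 of the 8 windows of these genes. The C/EBP-ATF core, the cyclic AMP element and the sterol core, in 3.45%, 1.55% and 1.05% of all windows, were also in 0 of the 8. Nqo1, the gene with the smallest p-value, had TATAAA on its own strand at positions -29 to -24 from the start. That sequence occurred, at any position and on either strand, in 12.4% of all windows. Gch1 had CCAAT at -70 to -66 and TATAAA on the opposite strand at -188 to -183. CCAAT occurred, at any position and on either strand, in 33.8% of all windows. Vkorc1l1 had CCAAT at -81 to -77, and the windows of Aifm2, Coq2, Pdss1, Pdss2 and Spr held none of the 6 motifs. The windows of Aifm2 and Coq2 lie wholly inside the annotated gene, downstream of an earlier annotated start. In the Vkorc1l1 window 139 of the 250 bases, including its CCAAT, lie inside the annotated gene. A match is a run of letters and not a shown binding site, and no match says only that the letters are not in this window.

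Total counts per library ran from 13333911 to 20509970, and the 2 groups overlapped in depth. A floor of 3 counts was worth 0.14 to 0.23 CPM (counts scaled to library size with TMM factors), which covers counting error only. Replicates within a group differed by more than sampling noise, with a chi-square of 11.0 to 19.5 per degree of freedom. All 9 fibroblast markers listed were present, with a summed level of 28531 to 29719 CPM in DMSO and 16762 to 18724 CPM in erastin libraries. The 4 epithelial markers summed to at most 0.93 CPM in any library. The skeletal muscle sum, nearly all from Des, was 35.5 to 45.3 CPM in DMSO and 65.0 to 68.4 CPM in erastin libraries, and the neural sum 72.1 to 100.4 and 54.6 to 61.5 CPM. The part of either in the results was not tested. In bulk RNA, fewer cells of a type and less RNA per cell cannot be told apart.

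Nqo1 encodes a cytosolic quinone reductase that moves 2 electrons at a time, can reduce coenzyme Q and vitamin K quinones, and is a known target of the transcription factor NRF2. Nqo1 rose with erastin. Its gene (ENSMUSG00000003849.8) spans chr8:107388225-107403206 on the minus strand (mm10), and no other annotated gene overlaps it. Its level was 57.3, 59.8 and 53.2 CPM in DMSO replicates 1, 2 and 3, and 94.5, 110 and 89.7 CPM in erastin replicates 1, 2 and 3. Every erastin library lay above every DMSO library, as was the case, in either direction, for 4 of the 9 genes and for 52.5% of all genes tested. The group means were 56.8 ± 3.31 and 97.9 ± 10.4 CPM (SD, n = 3 each), a log2 fold change of 0.78 (SE 0.10, edgeR BH-adjusted p = 1.22e-05), or 1.72-fold. Nqo1 passed in all 14 alternative fits, with log2 fold changes of 0.70 to 0.85.

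**Figure D1:**
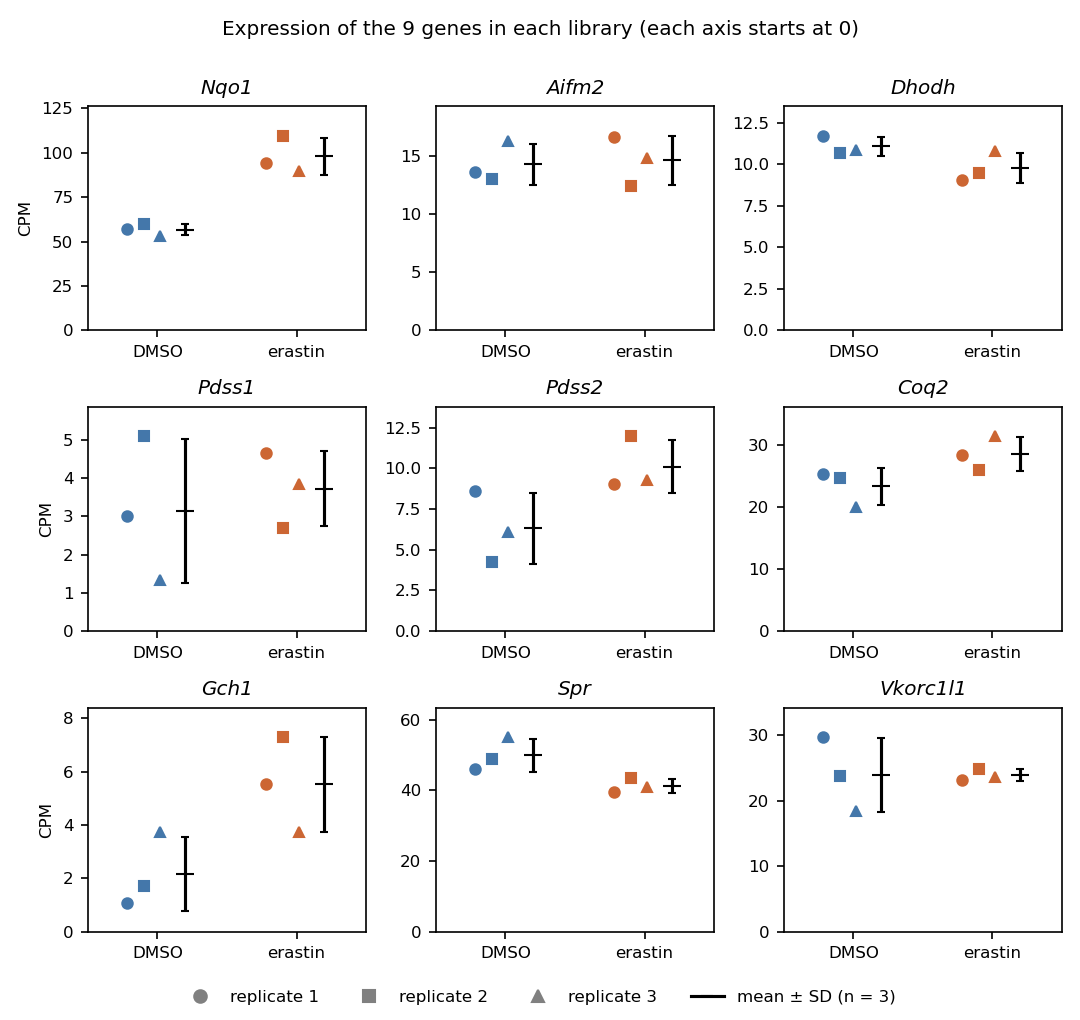
Expression of the 9 genes in CPM (vertical axes, each from 0) in the 3 DMSO and 3 erastin libraries. Each symbol is 1 library, and the bar is the mean ± SD. Nqo1 lies at 53.2 to 59.8 CPM in DMSO and 89.7 to 110 CPM in erastin libraries, while the groups overlap for Aifm2, Dhodh, Pdss1, Gch1 and Vkorc1l1.

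Aifm2 encodes FSP1, the reductase that regenerates ubiquinol and vitamin K hydroquinone at the plasma membrane after it is anchored there by N-myristoylation. Its level was 13.6, 13.0 and 16.3 CPM in the DMSO libraries and 16.6, 12.4 and 14.8 CPM in the erastin libraries. The highest and the lowest of the 6 values both came from erastin libraries, so the groups overlapped fully. This was a change in log2 of 0.04 with a 95% interval of -0.33 to 0.41 (SE 0.17, edgeR BH-adjusted p = 0.883), and its sign changed with upper-quartile scaling (-0.015). Aifm2 (ENSMUSG00000020085.11, chr10:61715263-61739260) shares 233 exonic bases with H2afy2 on the opposite strand, which had 175 to 419 reads per library. Whether counting used the strand is not stated, so reads in those bases could be assigned wrongly or dropped.

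Dhodh (chr8:109591343-109608673) encodes the inner mitochondrial membrane enzyme that oxidises dihydroorotate for pyrimidine synthesis and passes the electrons to coenzyme Q. The DMSO libraries had 11.7, 10.6 and 10.8 CPM and the erastin libraries 9.03, 9.46 and 10.8 CPM. Erastin replicate 3 lay inside the DMSO range and the other 2 erastin libraries lay below it. In log2 the difference was -0.18 (SE 0.18, 95% interval -0.57 to 0.22, edgeR BH-adjusted p = 0.467), which did not pass. The enzymes on either side of it in pyrimidine synthesis, Cad and Umps, did not pass either, with log2 fold changes of -0.13 (edgeR BH-adjusted p = 0.171) and 0.05 (edgeR BH-adjusted p = 0.769).

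The ratio of Nqo1 to Aifm2 within a library does not depend on how libraries are scaled. Per length of merged exons, Nqo1 stood at 10.6 times Aifm2 in DMSO and 17.8 times in erastin libraries (geometric means). The log2 ratio was higher by 0.75 with erastin, in 3 of 3 erastin libraries above all DMSO libraries (exact two-sided permutation p = 0.1, the smallest that 3 against 3 allows; 0.167 after adjustment over the 5 ratios tested). The list of quinone reductases, and of dehydrogenases that feed electrons into the ubiquinone pool, had 9 names. Of these, 1 (Choldh) is not a symbol of the mouse annotation used, so no gene was looked up under it. Of 8 tested, Nqo1 and Gpd2 were higher, Nqo2 was lower and 5 did not pass, where 43.1% of all genes passed in either direction. The list median was 0.11, against -0.0014 over all genes.

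Gpd2, the mitochondrial glycerol-3-phosphate dehydrogenase, rose from 43.3 ± 5.47 to 64.5 ± 3.83 CPM (SD, n = 3 each; 0.58 in log2, edgeR BH-adjusted p = 0.000464). Nqo2, the paralog of Nqo1 that uses dihydronicotinamide riboside in place of NADH or NADPH, fell from 16.6 ± 1.68 to 11.5 ± 0.54 CPM (SD, n = 3 each; -0.53 in log2, edgeR BH-adjusted p = 0.0164). The 2 quinone reductase paralogs thus moved in opposite directions, though the difference between them was not tested. The call for Nqo2 was lost without DMSO replicate 1 (edgeR BH-adjusted p = 0.0526) and without erastin replicate 2 (0.0512). Aifm1, a mitochondrial relative of Aifm2, was higher by 0.40 on the log2 scale (SE 0.12, edgeR BH-adjusted p = 0.0126), a call lost without DMSO replicate 1 (0.0578) or erastin replicate 1 (0.0707). The myristoyltransferases Nmt1 and Nmt2 had log2 fold changes of 0.20 and 0.13 and did not pass (edgeR BH-adjusted p = 0.0716 and 0.437), and Aifm3 had at most 6 reads in a library and was not tested.

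Pdss1 and Pdss2 encode the subunits of the enzyme that builds the polyprenyl tail of coenzyme Q, and Coq2 joins that tail to the ring. Pdss2 rose, while Coq2 and Pdss1 did not pass. Pdss2 lies at chr10:43221486-43464882, Pdss1 at chr2:22895522-22940266 and Coq2 at chr5:100654723-100675140. The Pdss2 values were 8.61, 4.27 and 6.07 CPM in DMSO and 9.03, 12.0 and 9.28 CPM in erastin libraries. The groups did not overlap, but DMSO replicate 1 lay just under the lowest erastin library. This was a change in log2 of 0.68 (SE 0.26, edgeR BH-adjusted p = 0.0476). This call rested on nearly every library: it was kept without DMSO replicate 1 (0.0123) and lost without DMSO replicate 2 (0.186), DMSO replicate 3 (0.0798), or erastin replicates 1, 2 or 3 (0.0750, 0.170 and 0.0567). It was also lost with upper-quartile scaling (0.0662) and after an offset for GC content and transcript length (0.0656).

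Pdss1 was low and uneven, at 3.02, 5.10 and 1.32 CPM in DMSO and 4.66, 2.69 and 3.84 CPM in erastin libraries, from 17 to 100 reads. The lowest and the highest of the 6 values were both DMSO libraries. The log2 fold change of 0.23 had a 95% interval of -0.70 to 1.16 (edgeR BH-adjusted p = 0.706), and it was -0.13 without DMSO replicate 3. Pdss1 shares 194 exonic bases with Abi1 and 207 with the pseudogene A130006I12Rik, both on the opposite strand, and Abi1 had 838 to 2591 reads per library. The log2 ratio of Pdss1 to Pdss2 was -0.66 ± 1.27 in DMSO and -0.97 ± 0.62 in those given erastin (SD, n = 3; exact two-sided permutation p = 0.9, adjusted 0.9), a difference smaller than the spread between replicates.

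Coq2 stood at 25.4, 24.7 and 20.004 CPM in DMSO and 28.4, 26.0 and 31.5 CPM in erastin libraries. The erastin libraries all lay above the DMSO libraries, with erastin replicate 2 close to DMSO replicate 1. This was a change in log2 of 0.29 (SE 0.14, 95% interval 0.0034 to 0.58), and the edgeR BH-adjusted p of 0.0959 did not pass. With the offset for GC content and length it was 0.44 in log2 and passed (edgeR BH-adjusted p = 0.0164).

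Among all 14 coenzyme Q synthesis genes listed, 2 were higher (Pdss2 and Coq5), 0 were lower and 12 did not pass, where 43.1% of all genes passed in either direction. Their median log2 fold change was 0.15. At an unadjusted p under 0.05, 5 were higher and 1, Coq8b, was lower in edgeR, and 4 were higher and 1 lower in DESeq2. The share of all genes at that unadjusted threshold was not computed. It cannot be under the share that passed after adjustment, 43.1% in edgeR and 43.6% in DESeq2. At an adjusted p under 0.05 DESeq2 called 2 higher and 0 lower, where it called 43.6% of all genes in either direction. Coq5, a methyltransferase of the ring, rose from 11.9 ± 0.92 to 20.03 ± 1.75 CPM (SD, n = 3 each; 0.75 in log2, SE 0.16, edgeR BH-adjusted p = 0.00122) and passed in all 14 alternatives. Coq3, another methyltransferase of the ring, had a log2 fold change of 0.43 (edgeR BH-adjusted p = 0.0556), which passed without DMSO replicate 1 (0.0291) and with scaling by total count (0.0321). The hydroxylase Coq7 and the kinase-like Coq8b had log2 fold changes of -0.38 each (edgeR BH-adjusted p = 0.170 and 0.0898), and Coq8b passed as lower without erastin replicate 1 (0.0288). Hpdl, which acts on the precursor of the ring, had 2 to 6 reads per DMSO library and 14 to 25 per erastin library (edgeR BH-adjusted p = 0.0606; 0.0373 after the GC and length offset).

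The isoprenoid units of the tail come from the mevalonate route. Of 6 genes of that route examined, 5 were lower and 1 was higher, against 21.5% and 21.6% of all genes. Their median was -1.38, against -0.0014 over all genes. Mvk, the mevalonate kinase, fell from 48.9 ± 2.87 to 12.1 ± 0.98 CPM, and Fdps, which makes the farnesyl diphosphate that the tail synthase extends, from 65.9 ± 8.70 to 28.4 ± 3.73 CPM (SD, n = 3 each; edgeR BH-adjusted p = 1.23e-08 and 1.88e-06). Ggps1, which makes geranylgeranyl diphosphate, rose from 23.8 ± 1.58 to 36.2 ± 2.71 CPM (SD, n = 3 each; 0.61 in log2, edgeR BH-adjusted p = 0.000683). Mvd and Idi1 fell too, with log2 fold changes of -1.55 and -1.54. Pmvk, at -0.64 (edgeR BH-adjusted p = 0.0356), lost its call after the GC and length offset (0.144), with scaling by total count (0.0589), and without DMSO replicates 1 or 3 (0.175 and 0.0506) or erastin replicates 1 or 2 (0.0857 and 0.129).

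Gch1 and Spr encode the first and the last enzyme of tetrahydrobiopterin synthesis, and they moved in opposite directions. Neither call was kept throughout: Gch1 passed in 10 and Spr in 4 of the 14 alternative fits. Gch1 lies at chr14:47153895-47189413 and Spr at chr6:85130176-85137766. Gch1, the GTP cyclohydrolase that sets the rate of the route, had 1.06, 1.72 and 3.74 CPM in DMSO libraries, from 14, 31 and 48 reads. The erastin libraries had 5.54, 7.30 and 3.73 CPM, from 119, 122 and 72 reads. Erastin replicate 3 and DMSO replicate 3 were level, so the groups touched, while the other libraries were apart. The log2 fold change of 1.35 (SE 0.43, 95% interval 0.43 to 2.28, edgeR BH-adjusted p = 0.0201) was the largest of the 9 genes and also among the least precise. It lost its call without DMSO replicate 1 (0.0760), DMSO replicate 2 (0.0752), erastin replicate 1 (0.0639) or erastin replicate 2 (0.0998), and was kept without DMSO replicate 3 (0.00161) or erastin replicate 3 (0.0127). Without DMSO replicate 3 it reached 1.96.

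Gch1 is also expressed in endothelial cells and macrophages, so their markers were set beside it. The 4 endothelial markers summed to 4.66 to 7.10 CPM in DMSO and 13.2 to 16.4 CPM in erastin libraries. The endothelial receptor genes Kdr and Tek were higher with erastin, at 7.42 to 8.71 against 1.94 to 4.16 CPM and 5.63 to 6.59 against 1.95 to 2.49 CPM (edgeR BH-adjusted p = 0.00172 and 0.00117). The endothelial genes Pecam1 and Cdh5 were too low to be tested. Pecam1 had 0.055 to 0.15 CPM in DMSO and 0.060 to 0.78 CPM in erastin libraries. Cdh5 had 0.078 to 0.45 CPM in DMSO and 0.12 to 0.56 CPM in erastin libraries. The macrophage gene Cd68 had 1.06 to 2.96 CPM in DMSO and 2.96 to 4.97 CPM in erastin libraries (edgeR BH-adjusted p = 0.0548). The other 3 leukocyte markers did not pass: the macrophage genes Adgre1 and Csf1r and the pan-leukocyte gene Ptprc had log2 fold changes of -0.051, -0.056 and -0.34 (edgeR BH-adjusted p = 0.941, 0.898 and 0.713). The summed leukocyte level, 10.8 to 14.7 CPM in DMSO and 9.23 to 16.9 CPM in erastin libraries, overlapped between groups. The part of such cells in the Gch1 result was not tested.

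Spr, the sepiapterin reductase, fell slightly, from 46.0, 48.7 and 55.1 CPM in DMSO to 39.5, 43.4 and 40.9 CPM in erastin libraries. The groups did not overlap; the nearest pair was erastin replicate 2 and DMSO replicate 1. In log2 this was -0.28 (SE 0.10, 95% interval -0.49 to -0.056, edgeR BH-adjusted p = 0.0415). The call was kept without DMSO replicate 1 (0.0330) and lost without DMSO replicates 2 or 3 (0.0778 and 0.148) and without erastin replicates 1, 2 or 3 (0.147, 0.0543 and 0.0800). It was also lost with scaling by total count (0.112), without the filter on low counts (0.103) and after the GC and length offset (0.0768).

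The log2 ratio of Gch1 to Spr within a library was -5.54 ± 0.79 in DMSO and -3.77 ± 0.45 in those given erastin (SD, n = 3; exact two-sided permutation p = 0.1, adjusted 0.167). It was higher in each erastin library than in any DMSO library, and Gch1 remained far under Spr per length, at 0.0732 of it with erastin. Of the 8 genes of tetrahydrobiopterin synthesis and recycling, these 2 passed and 6 did not, where 43.1% of all genes passed. The median of the 8 was -0.19. The middle enzyme Pts had a log2 fold change of 0.38 (edgeR BH-adjusted p = 0.218), and the recycling enzyme Qdpr -0.26 (edgeR BH-adjusted p = 0.0968; 0.0471 with upper-quartile scaling). Gchfr, which encodes the feedback regulator of the Gch1 product, had 11, 0 and 0 reads in DMSO libraries and 22, 24 and 14 in erastin libraries, so no ratio to Gch1 was formed. The groups overlapped, since DMSO replicate 1 (0.83 CPM) lay above erastin replicate 3 (0.73 CPM), and Gchfr did not pass (edgeR BH-adjusted p = 0.128).

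Vkorc1l1 (chr5:129941970-129986692) encodes a vitamin K epoxide reductase that, with its paralog Vkorc1, returns vitamin K to its hydroquinone. Vkorc1l1 itself had 29.8, 23.7 and 18.4 CPM in DMSO and 23.2, 24.9 and 23.6 CPM in erastin libraries. All 3 erastin libraries lay inside the DMSO range. The log2 fold change was -0.0061 (SE 0.16, 95% interval -0.35 to 0.33, edgeR BH-adjusted p = 0.98), and its sign changed with the scaling. The paralog Vkorc1, the reductase that sustains blood clotting, fell from 21.5, 21.1 and 15.2 CPM to 9.54, 8.50 and 10.9 CPM. Its change was -0.997 in log2 (SE 0.18, edgeR BH-adjusted p = 0.000474), with no overlap between the groups, and it passed in all 14 alternatives.

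The 2 paralogs were also set against each other within each library. Per length of merged exons Vkorc1l1 stood at 0.198 of Vkorc1 in DMSO and at 0.397 of it in erastin libraries. The log2 ratio was -2.34 ± 0.15 in DMSO and -1.33 ± 0.22 in those given erastin (SD, n = 3), higher in 3 of 3 erastin libraries (exact two-sided permutation p = 0.1, adjusted 0.167). Per length, Vkorc1 stayed the more abundant transcript, at 11.5 ± 1.43 CPM per kb against 4.54 ± 0.17 for Vkorc1l1 with erastin (SD, n = 3). Without division by length the order was the reverse, at a mean of 9.64 CPM for Vkorc1 and 23.9 CPM for Vkorc1l1 with erastin.

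**Figure D2:**
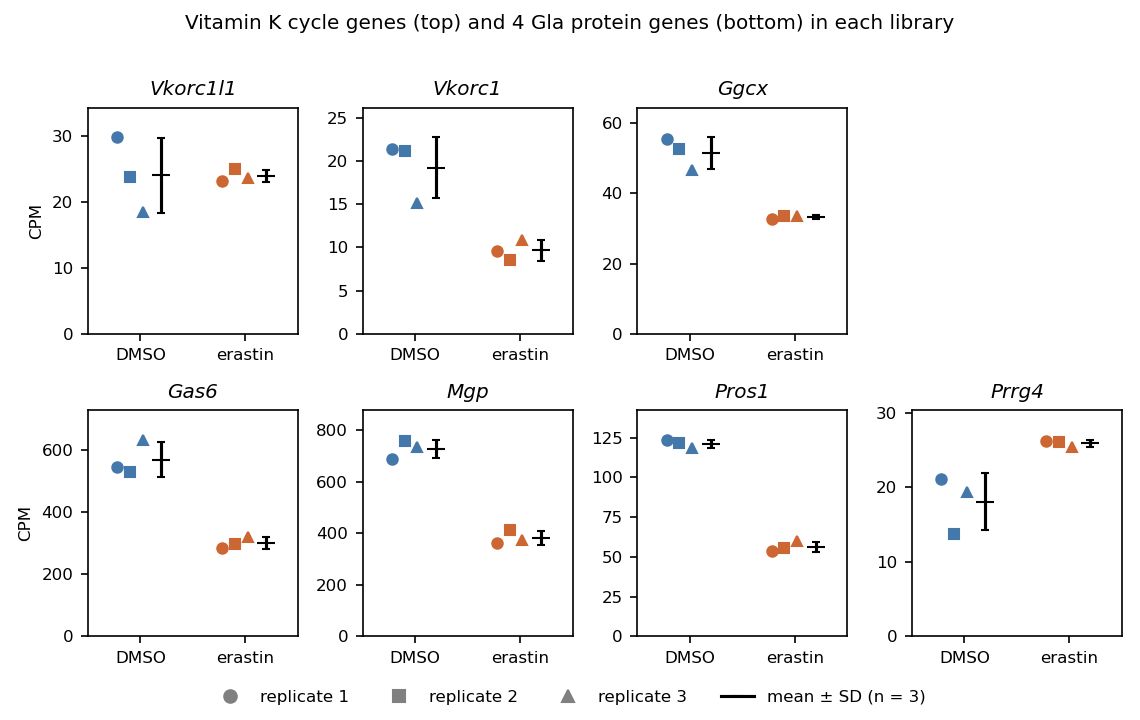
Levels in CPM (vertical axes from 0) of 3 vitamin K cycle genes and of 4 genes of vitamin K dependent proteins in the 3 DMSO and 3 erastin libraries, with mean ± SD. Vkorc1l1 in erastin libraries (23.2 to 24.9 CPM) lies inside its DMSO range, while Vkorc1, Ggcx, Gas6, Mgp and Pros1 are lower and Prrg4 is higher with erastin.

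Ggcx, the carboxylase that consumes the hydroquinone, fell from 51.5 ± 4.55 to 33.3 ± 0.50 CPM (SD, n = 3 each; -0.63 in log2, edgeR BH-adjusted p = 0.000157). The carboxylase acts on Gla proteins, which carry the modified glutamates. Of 7 such genes tested, 4 were lower and 1 was higher, with a median of -0.60, against 21.5% lower, 21.6% higher and a median of -0.0014 over all genes. The growth arrest ligand Gas6, the matrix calcification inhibitor Mgp and the anticoagulant Pros1 had log2 fold changes of -0.92, -0.92 and -1.10 (edgeR BH-adjusted p = 4.22e-07, 1.63e-07 and 1.01e-07). The transmembrane gene Prrg4 was higher by 0.53 in log2 (edgeR BH-adjusted p = 0.0146; 0.0749 without DMSO replicate 2, 0.0541 without erastin replicate 1). Prrg3 was lower, with a log2 fold change of -0.60 (edgeR BH-adjusted p = 0.0328), a call lost without DMSO replicates 1 or 3 (0.0639 and 0.106) or erastin replicates 1 or 2 (0.112 and 0.0598), with scaling by total count (0.0541) and without the filter on low counts (0.0672). Bglap had at most 1 read in a library.

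**Figure D3:**
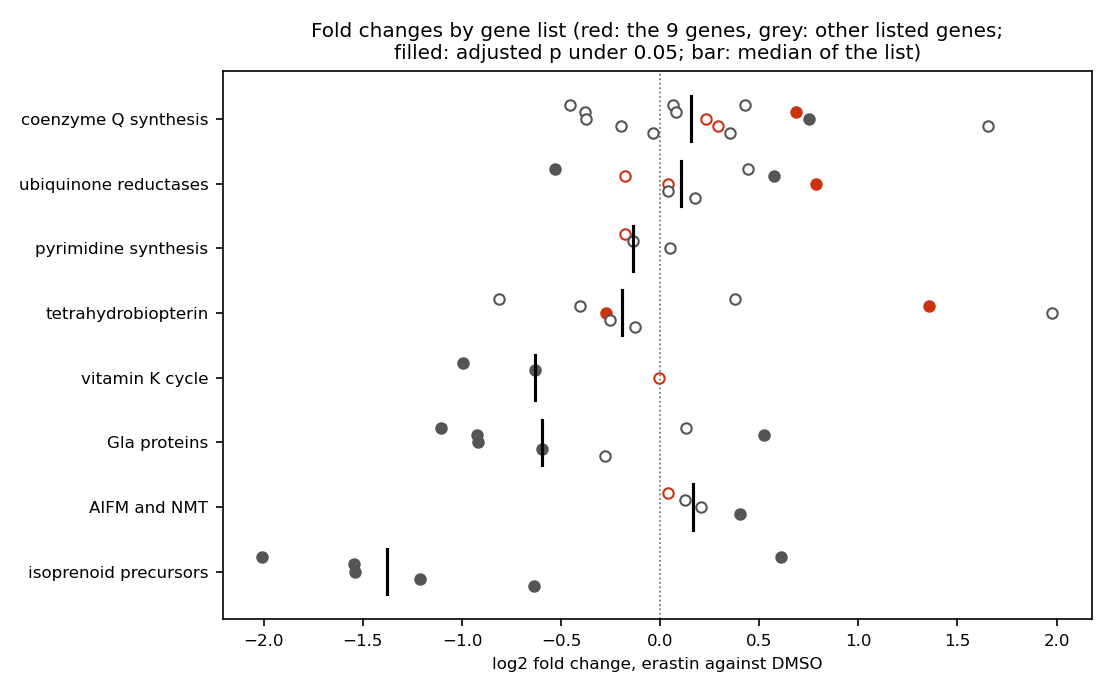
Log2 fold changes (horizontal axis) of the genes tested in 8 lists of the coenzyme Q, biopterin and vitamin K routes. Filled symbols passed at an adjusted p under 0.05, red symbols are the 9 genes, and bars are list medians. The isoprenoid precursors lie furthest to the left, with a median of -1.38, and coenzyme Q synthesis centres on 0.15.

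**Figure D4:**
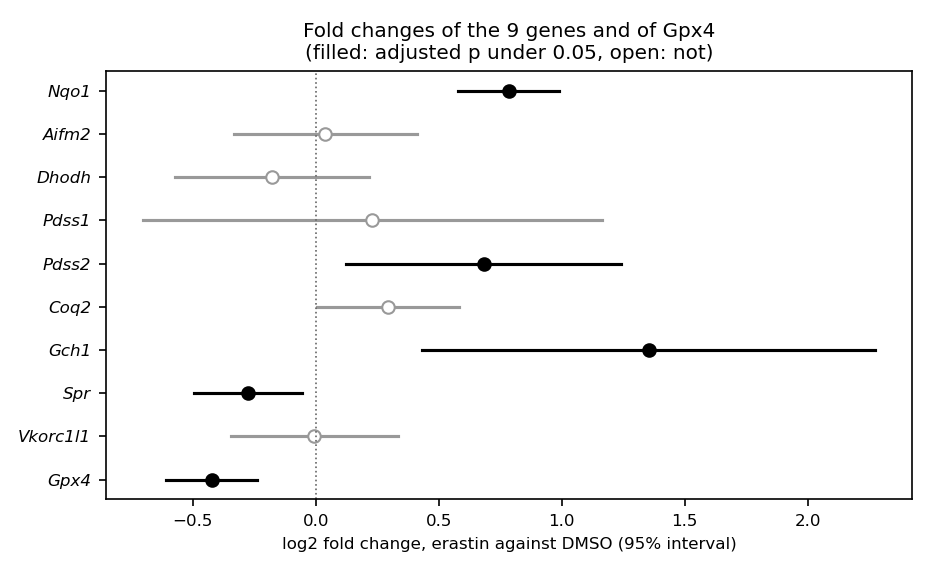
Log2 fold changes of the 9 genes and of Gpx4 between erastin and DMSO (horizontal axis) with 95% intervals from the edgeR fit, filled where the adjusted p was under 0.05. The intervals of Nqo1 (0.58 to 0.99) and Gpx4 (-0.61 to -0.24) are narrow, and those of Gch1 (0.43 to 2.28) and Pdss1 (-0.70 to 1.16) are wide.

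Per kilobase of merged exons, Nqo1 was the most abundant of the 9 transcripts in both groups, at 36.6 ± 2.13 CPM per kb in DMSO and 63.0 ± 6.71 with erastin (SD, n = 3). Spr, Coq2, Vkorc1l1 and Aifm2 followed in that order in both groups, at 14.1, 8.91, 4.56 and 3.47 CPM per kb in DMSO. The ranges of Vkorc1l1 and Aifm2 overlapped in DMSO libraries, and those of Spr and Coq2 overlapped with erastin (11.6 ± 0.55 and 10.9 ± 1.04 CPM per kb). Dhodh, Pdss2, Pdss1 and Gch1 were lowest, at 1.75, 1.06, 0.74 and 0.35 CPM per kb in DMSO. With erastin, Pdss2 (1.69) stood before Dhodh (1.54), and Gch1 and Pdss1 were level at 0.88 each. Ranges overlapped between neighbours among Pdss2, Pdss1 and Gch1 in DMSO, and with erastin between Pdss2 and Dhodh and between Gch1 and Pdss1. The order rests on the length used, and neighbours could change places with another length. Merged exons equal the longest transcript for Nqo1 and Spr and exceed it for the rest. For Pdss1 they are 4248 against 1950 bases, for Gch1 6251 against 3508, and for Coq2 2624 against 1743. A ranking per longest transcript was not made.

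For reference, Gpx4 stood at 82.0 ± 3.49 CPM per kb in DMSO and 61.2 ± 5.90 with erastin (SD, n = 3). Its log2 fold change of -0.42 (edgeR BH-adjusted p = 0.00111) missed the threshold once an offset for GC content and length was applied (-0.17, edgeR BH-adjusted p = 0.111). Aifm2 was thus at 0.0421 of Gpx4 per length in DMSO and 0.0577 with erastin, a log2 difference of 0.46 that overlapped between groups (exact two-sided permutation p = 0.2, adjusted 0.25).

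**Figure D5:**
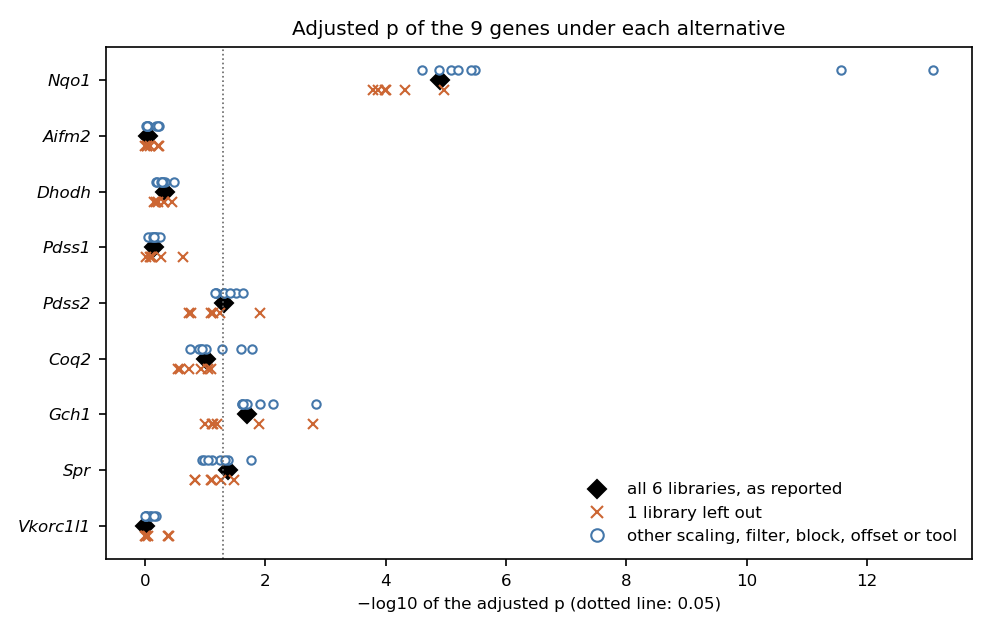
Adjusted p of each of the 9 genes on a −log10 scale (horizontal axis) with all 6 libraries, with 1 library left out, and under the other alternatives. Nqo1 lies right of the 0.05 line throughout, and Gch1, Pdss2 and Spr lie on both sides of it.

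The genes whose 6 library values ran closest to those of Gch1 and Nqo1, the 2 genes with the largest log2 fold changes, were named by the distance between mean-centred log2 CPM values over the 6 libraries. For Gch1 they were Angptl6, Cd68 and Flvcr2, at distances of 0.58, 0.60 and 0.63. Their log2 fold changes were 1.16, 1.06 and 1.37, and Cd68, the macrophage gene given above, did not pass. For Nqo1 they were Csrnp2, Rsl1d1 and Slc35e4, at 0.10, 0.11 and 0.13. Those had log2 fold changes of 0.82, 0.78 and 0.77. Since these genes were chosen on the same 6 values, fold changes near those of Gch1 and Nqo1 follow from the choice. The distances around Gch1 were larger, as were the differences between its own replicates.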

How the data were processed

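RNA was measured in 3 DMSO and 3 erastin libraries of mouse embryonic fibroblasts. Per the labels' protocols, total RNA was depleted of ribosomal RNA and sequenced on an Ion Proton instrument. The values are read counts per gene as the authors deposited them. The submitters' processing notes list HTSeq 0.9.1, SAMtools and mm10; the aligner, the annotation and the strand setting are not given in the sources used here. Of 43346 gene identifiers, 42462 were paired with a symbol (GENCODE M21).

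Counts were tested with edgeR 4.0.16 in R 4.3.3: genes passing filterByExpr (minimum count 10, minimum total 15), TMM factors, quasi-likelihood test of erastin against DMSO, Benjamini-Hochberg adjustment over 14000 genes and a threshold of 0.05. SEs and 95% intervals come from the same fit, and the script was tested on simulated data. Levels are CPM, or CPM per kilobase of merged exons. Ratios between 2 genes of a library were compared with exact two-sided permutation tests and adjusted over 5 ratios, since Gchfr had libraries with 0 reads. Distances between genes used log2(CPM + 0.1), a value added after the data were seen.

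Genes named were the 9 genes, Gpx4, genes of 8 pathway lists and the 3 nearest genes (mean count of at least 50) of the 2 genes with the largest fold changes. Genes left out of the lists after their values were seen, 2 in all, are not reported here, and list counts and medians are over the others. The members and lists were chosen with earlier results of these data known. The motifs, the promoters shown and the list genes named singly were chosen after their values were seen. Alternatives were RLE, upper-quartile and total-count scaling, no filter, the replicate number as a block, an offset for GC content and length (mgcv 1.9.3; 99.5% of genes had a GC value), DESeq2 1.42.0, a threshold of 0.01, each library left out, and for ratios the longest transcript or 0.5 added reads.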

Additional observations from a re-analysis of the deposited data

How the results depend on the processing

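Of the 9 genes, 1 passed at an adjusted p under 0.01 (1 higher, 0 lower), where 30.8% of all genes did (4305 of 14000). When a library was left out, 1 to 3 passed (1 to 2 higher, 0 to 1 lower). In those fits 33.6% to 40.2% of all genes passed, against 43.1% with all libraries. The lower call, Spr, was lost, leaving 0, with scaling by total count, without the filter, with the replicate block, with the GC and length offset and with that offset and the block; the cause was not tested. Of the 42 other listed genes tested, 5 were higher and 12 lower, against 21.6% and 21.5% of all genes. At 0.01, 3 were higher and 9 lower, where 30.8% of all genes passed in either direction. With a library left out, 3 to 6 were higher and 9 to 12 lower. The log2 fold change of Aifm2 reversed with upper-quartile scaling (-0.015) and ran from -0.067 to 0.14 with a library left out. That of Vkorc1l1 reversed with total-count scaling (0.055), without the filter (0.013) and with the block (0.016), and ran from -0.16 to 0.17. That of Pdss1 (-0.13 to 0.78) and the log2 ratio of Pdss1 to Pdss2 (-0.83 to 0.39) also changed sign with a library left out. Of all genes called, 50.2% were higher with TMM, 44.0% with upper-quartile and 57.1% with total-count scaling, and the median over every gene tested was -0.0014, -0.055 and 0.065. The groups share replicate numbers, but the deviations of same-numbered libraries had correlations of 0.040, 0.0038 and -0.0055, and 3 of 6 libraries correlated best with their own number; with the replicate block 5882 genes passed, against 6028. Gch1 and Pdss1 had the fewest reads of the 9 genes, 14 to 122 and 17 to 100 per library; counting error and spread between replicates were not separated.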
